A study of Mus musculus with 24 samples.

Results

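Described here are 909 H3K4me3 peak regions of the mouse cerebral cortex that carried much less signal in Camk2a tChIP-Seq than in Rosa tChIP-Seq. They were chosen by those tChIP values alone. Counts per region were divided by the library total and multiplied by 1000000 to give CPM, and a region on chromosomes 1 to 19 was taken when it had a mean of 20 or more counts over the 3 Rosa tChIP libraries and when log2 of mean CPM + 0.5 in Camk2a tChIP over mean CPM + 0.5 in Rosa tChIP was −1 or less. Of 17993 deposited regions, 17374 lay on these chromosomes and 13994 of them had the count minimum, so the members made up 6.50% of the regions that could be chosen and 5.05% of all regions. The other 3380 regions on these chromosomes were under the minimum, and 455 of them had a log2 ratio of −1 or less that rested on few counts. For comparison, 522 regions with the minimum had a log2 ratio of 1 or more.

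H3K4me3 was measured in 2 mouse lines that express histone H2B with a FLAG tag, by single ChIP-Seq with anti-H3K4me3 antibody alone and by tandem ChIP-Seq (tChIP-Seq), in which chromatin was first taken with anti-FLAG antibody M2 and then with anti-H3K4me3. The tandem step was meant to restrict the profile to cells that carry the tag. Each line and each kind of ChIP had 3 libraries, and each lysate was made from the cortices of 2 animals. In the Camk2a line, of strain C57BL/6, mice carry the Rosa26 allele CAG-floxed-pA-H2B-FLAG together with CaMKCreERT2, and the tag becomes expressed where Cre under the Camk2a promoter is active, which in the forebrain is mainly in excitatory neurons. These were double-heterozygous males given 1 mg of tamoxifen a day by intraperitoneal injection for 5 days from 8 weeks of age, and cortex was collected a month later. In the Rosa line, of genotype Rosa CAG-H2B-FLAG and the same strain, the stop cassette had been removed in the germ line with Vasa-Cre, so that heterozygous animals carry the tag in all tissues; a tamoxifen treatment, the sex and the exact age of these adults are not given in the sources used here. Both lines go back to the same knock-in made in TT2 ES cells. The lines therefore differ in the Cre transgene, and possibly in tamoxifen, as well as in the cells that are tagged, and these cannot be told apart.

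H3K4me3 sits on nucleosomes around the start sites of active genes and of some genes poised for activation, and the set of marked promoters differs between cell types. Besides excitatory neurons, the cortex holds inhibitory interneurons, astrocytes, cells of the oligodendrocyte lineage, microglia, and the endothelial cells, pericytes and fibroblasts of its vessels and coverings. Promoters used in most cells usually lie in CpG islands, whereas many promoters used in a single cell type hold few CpG dinucleotides.

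Total counts were 1828371, 1607389 and 1457261 in the Rosa tChIP libraries 1 to 3 and 3049130, 2778331 and 2709729 in the Camk2a tChIP libraries. In single ChIP they were 7104660, 8644574 and 6316125 in the Rosa line and 4125767, 4233144 and 4063200 in the Camk2a line. The tChIP libraries, on which the members were selected, are thus the shallowest, and 1 count was worth 0.547 to 0.686 CPM in Rosa tChIP. The members took 3.89%, 3.94% and 3.98% of all counts in Rosa tChIP and 1.28%, 1.23% and 1.29% in Camk2a tChIP, a difference that the selection fixes. In single ChIP, which the selection did not use, they took 2.33%, 2.37% and 2.34% of counts in the Rosa line and 2.40%, 2.43% and 2.42% in the Camk2a line. These are bulk samples, so fewer cells of a type and less mark per cell cannot be told apart. The p-values below measure the spread between these libraries, which may be partly technical.

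Among the members the log2 ratio of Camk2a to Rosa tChIP ranged from −3.79 to −1.01 with a median of −1.60; it was −2 or less in 260 members and −3 or less in 23. All 3 Camk2a tChIP libraries lay below all 3 Rosa tChIP libraries in each of the 909 members, as they did in 32.3% of the 13994 regions with the count minimum, and the choice of members favours this. Just inside the threshold, all at −1.01, were an intergenic region near Gm10151 and the regions of Smarcd3, Kank1, Dlx1 and Tlr3. At Smarcd3, for example, CPM was 83.1, 90.2 and 95.4 in Rosa tChIP and 46.2, 42.5 and 44.3 in Camk2a tChIP. Just outside it, all between −1 and −0.99, were the regions of Nckap5, Tradd, Tsks, Amz2 and Orai1, with 66.7, 69.7 and 67.9 CPM in Rosa tChIP and 36.7, 31.7 and 33.2 in Camk2a tChIP at Orai1.

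To see which cell types the members come from, 14 lists with 298 marker and pathway genes were compared with the regions. Of 208 list genes whose region had the count minimum, 94 were members, and 815 members were on no list. None of the 17 excitatory cortical neuron genes with the minimum was a member, and their median log2 ratio was 0.95, against −0.09 over all 13994 regions. Slc17a7, the vesicular glutamate transporter of cortical excitatory neurons, had 42.1, 41.7 and 41.2 CPM in Rosa tChIP and 122, 134 and 119 in Camk2a tChIP. Members were instead 21 of 26 endothelial genes, 14 of 21 astrocyte genes, 13 of 20 oligodendrocyte lineage genes, 8 of 11 pericyte and smooth muscle genes, 5 of 6 meningeal and fibroblast genes, and 7 of 15 inhibitory neuron genes. In the choroid plexus and ependymal list 0 of 6 genes were members, and the region of Enkur there also overlaps the start of another gene, Thnsl1. These counts describe the selection and were not tested. Both lines were scaled to their own tChIP totals, so depletion here is relative to the other regions of the same library.

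The endothelial list had the largest number of members. At Cdh5, the adherens junction cadherin of endothelium (chr8:106625423-106627516), CPM was 33.9, 40.4 and 34.3 in Rosa tChIP, 4.26, 5.04 and 3.32 in Camk2a tChIP, 21.5, 22.2 and 20.4 in Rosa single ChIP and 24.0, 22.7 and 24.1 in Camk2a single ChIP. The Camk2a tChIP values were the lowest of the 4 groups; in single ChIP the Camk2a values were just above the Rosa values without overlap, a difference of 0.11 on the log2 scale that did not pass the test described below. Flt1, a receptor for vascular endothelial growth factor, had a much wider region of 6581 bp, with 103, 101 and 96.1 CPM in Rosa tChIP, 23.0, 24.1 and 27.7 in Camk2a tChIP, 74.9, 73.1 and 69.3 in Rosa single ChIP and 81.7, 71.1 and 75.6 in Camk2a single ChIP. There the single ChIP groups overlapped. Lef1, a nuclear partner of β-catenin in Wnt signalling, Egfl7, a secreted protein of endothelium, and Fli1, an ETS transcription factor, also had Rosa tChIP above and Camk2a tChIP below all single ChIP values, and overlapping single ChIP groups, with log2 ratios of −2.04, −1.13 and −1.42. Further members were the receptors Kdr, Tek, Eng and Robo4, the junction proteins Cldn5, Pecam1 and Esam, the transcription factors Sox7, Erg, Ets1 and Tal1, the blood-brain barrier transporters Slco1c1 and Mfsd2a, and Nos3, Eltd1 and Gpr116. The 5 endothelial genes with the minimum that were not members included Slc2a1, the glucose transporter of the barrier, at −0.79, and Foxq1 and Sox18, both at −0.99. Sox17 had no region, and Tie1, Emcn, Ly6c1 and Vwf were under the minimum.

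Members were also found among mural and meningeal genes. Foxf2, a forkhead factor of brain pericytes with a region of 7336 bp, had 155, 153 and 139 CPM in Rosa tChIP and 44.3, 40.7 and 42.4 in Camk2a tChIP, and 105, 110.1 and 106 and 103, 107 and 111 in Rosa and Camk2a single ChIP, where the groups overlapped. Pdgfrb, the platelet-derived growth factor receptor that marks pericytes, had 87.0, 74.7 and 96.1 CPM in Rosa tChIP, 14.1, 10.1 and 14.0 in Camk2a tChIP, 41.1, 39.9 and 38.2 in Rosa single ChIP and 47.0, 34.7 and 42.3 in Camk2a single ChIP. In the single ChIP libraries of Pdgfrb the Camk2a values spread around the Rosa values. Foxs1, with a region 202 bp from its TSS (transcription start site), had the lowest ratio of the list at −3.06, and Ebf1, Tbx18, Tbx2, Myl9 and Notch3 were the other pericyte and smooth muscle members. Foxc1 (−0.88), Kcnj8 (0.16) and a region 691 bp from Vtn (0.34) had the minimum and were not members. The region near Vtn overlaps the TSS of another gene, Sarm1, so its value may not be that of Vtn. Of the contractile genes of smooth muscle on the list, Acta2, Tagln and Des had no region. The meningeal members were transcription factors of mesenchyme, namely Foxc2, Foxd1, Twist1, Tbx15 and Prrx1. At Twist1 CPM was 35.0, 34.2 and 34.3 in Rosa tChIP, 8.53, 8.28 and 10.3 in Camk2a tChIP, 9.85, 10.4 and 10.3 in Rosa single ChIP and 14.5, 13.7 and 13.3 in Camk2a single ChIP. All Camk2a single ChIP values of Twist1 were above all Rosa values, but the difference did not pass the test (log2 fold change 0.41, SE 0.15, adjusted p = 0.0725 in the edgeR quasi-likelihood test with Benjamini-Hochberg adjustment over all 17993 regions). On the meningeal list a region 91 bp from Crabp2 (0.44) had the minimum and was not a member. No region was found for the fibroblast matrix genes Col3a1, Dcn, Lum, Ogn and Fmod.

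The astrocyte list gave 14 members. Gja1 encodes connexin 43, the gap junction protein of astrocytes, and its region had 95.7, 98.9 and 107 CPM in Rosa tChIP, 18.7, 21.2 and 18.5 in Camk2a tChIP, 60.9, 63.6 and 66.0 in Rosa single ChIP and 71.3, 67.1 and 61.0 in Camk2a single ChIP. Single ChIP groups overlapped, and all Rosa tChIP values were above all single ChIP values. Aldh1l1, a folate enzyme widely used as an astrocyte marker, had 20.2, 22.4 and 28.8 CPM in Rosa tChIP and 2.62, 3.24 and 3.32 in Camk2a tChIP. Its single ChIP values of 12.5, 15.2 and 11.7 in the Rosa line and 11.9, 14.2 and 10.3 in the Camk2a line overlapped. Log2 ratios were −2.64 at the water channel gene Aqp4, −2.46 at the intermediate filament gene Gfap, −1.67 at the glutamate transporter gene Slc1a3 and −1.83 at the growth factor receptor gene Fgfr3. The weakest of the list were Ppap2b, Gjb6 and Rfx4 at −1.11, −1.04 and −1.04. Among the 7 astrocyte genes with the minimum that were not members, Slc1a2, the other astrocytic glutamate transporter, stood at 0.31, and Glul, Sox9 and S100b at −0.67, −0.44 and −0.54. Summed over the 24 measured astrocyte genes, CPM was 1191, 1201 and 1206 in Rosa single ChIP and 1265, 1266 and 1199 in Camk2a single ChIP, with Glul the most abundant, and the groups overlapped.

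Oligodendrocyte lineage members were the transcription factors Olig1, Olig2, Sox10, Nkx2-2 and Nkx6-2, the progenitor proteoglycan gene Cspg4, and the myelin and oligodendrocyte genes Mbp, Mag, Cnp, Mal, Cldn11, Ermn and Aspa. Unlike the vascular members, several of these had no more signal in Rosa tChIP than in Rosa single ChIP. At Sox10, whose region lay 3 bp from the TSS, CPM was 38.3, 41.7 and 39.1 in Rosa tChIP, 11.5, 11.5 and 9.60 in Camk2a tChIP, 62.5, 70.9 and 69.0 in Rosa single ChIP and 53.3, 57.6 and 59.3 in Camk2a single ChIP. Each group of Sox10 stood apart from the others, with Rosa single ChIP the highest. Log2 ratios of Rosa tChIP to Rosa single ChIP were −0.82 at Mbp, −0.81 at Ermn and −0.76 at Sox10, the 3 lowest values among the 909 members, whose median was 0.89. Sox8 (0.07) and Enpp2 (0.06) were on the same list with the count minimum and were not members. The Opalin, Mog and Mobp regions were under the minimum.

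Few microglial genes could be judged. Of 29 genes on the microglia and macrophage list, 13 had no region, among them Cx3cr1, Aif1, P2ry12, Itgam and Ptprc, 9 were under the minimum and 1 was not in the annotation. Runx1, a hematopoietic transcription factor, and Inpp5d, a phosphatase of immune cell signalling, were the 2 members, at −1.08 and −2.06. At Inpp5d CPM was 15.9, 15.6 and 15.8 in Rosa tChIP, 3.28, 3.24 and 3.69 in Camk2a tChIP, 10.6, 11.2 and 12.5 in Rosa single ChIP and 10.7, 11.3 and 15.3 in Camk2a single ChIP. The Inpp5d single ChIP groups overlapped. Csf1r, C1qa and C1qc, under the minimum, had log2 ratios of −1.46, −1.23 and −1.49 on few counts.

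The Camk2a promoter is known to be little active in cortical interneurons, and 7 of 15 inhibitory neuron genes were members. Among them were Gad1, which encodes a GABA-synthesizing enzyme, and the developmental transcription factors Dlx1, Dlx2, Dlx6, Lhx6 and Prox1. At Gad1 CPM was 27.3, 28.6 and 26.1 in Rosa tChIP, 11.8, 12.6 and 14.0 in Camk2a tChIP, 26.9, 28.5 and 26.6 in Rosa single ChIP and 27.1, 35.2 and 29.8 in Camk2a single ChIP, where the groups overlapped. The ratios of −1.07 at Gad1, −1.23 at Lhx6 and −1.01 at Dlx1 were closer to the threshold than those of the endothelial members, whose median was −2.14. Gad2 (−0.60) and the vesicular GABA transporter gene Slc32a1 (−0.97) were not members, and Sst, Vip and Npy had no region. Of the striatal and subcortical list, Adora2a (−1.69) and Tcf7l2 (−2.83) were members, while the dopamine receptor genes Drd1a and Drd2 were at 0.33 and 0.08. Tcf7l2, a Wnt effector expressed in the thalamus and in oligodendrocytes, had 124, 131 and 126 CPM in Rosa tChIP, 22.3, 13.7 and 16.2 in Camk2a tChIP, 91.5, 84.2 and 87.9 in Rosa single ChIP and 76.8, 85.3 and 87.6 in Camk2a single ChIP, and the single ChIP groups overlapped.

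Signalling genes split within each pathway. Of 20 Notch, Hes, Id and neural progenitor genes with the minimum, 10 were members: the receptor Notch1, its ligand Jag1, the helix-loop-helix inhibitors Id1 and Id3, the Hedgehog effectors Gli1 and Gli2, the neural factor Pax6, and Nes, Vim and Prom1. At Id3 CPM was 104, 105 and 111 in Rosa tChIP, 20.0, 20.5 and 18.5 in Camk2a tChIP, 74.5, 78.8 and 81.2 in Rosa single ChIP and 81.0, 82.7 and 77.8 in Camk2a single ChIP, with overlapping single ChIP groups. The Notch targets Hes5 and Hey1 were not members, at 0.07 and 0.09, and Id2 was at 0.21. The region of Hes5 also overlaps the TSS of another gene, Pank4, so its value may not be that of Hes5. In the BMP and TGF-β pathway 4 of 20 genes were members, namely the endothelial receptor Acvrl1 (−2.25 at the first of its 2 regions), the inhibitor Smad6 (−1.93), the ligand Tgfb1 (−1.68) and the receptor Tgfbr2 (−1.02). Smad7, another inhibitor, was not a member, at −0.16, and neither was Bmpr2, at −0.03. Hippo pathway members were 5 of 17, the coactivator Wwtr1 (−1.32), its DNA-binding partners Tead2 (−1.27) and Tead3 (−1.60), the target Ctgf (−1.03) and the scaffold Amotl2 (−1.25), whereas the paralogous coactivator Yap1 was at −0.70. In antigen presentation and interferon signalling 3 of 14 were members, Irf9 (−2.12), Bst2 (−1.50) and the region shared by the starts of Ifit1 and 2010002M12Rik (−2.98).

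Ranked by the selection value itself, the lowest ratio, −3.79, was at a gene-body region of 1700084C01Rik, where Camk2a tChIP had 7 counts in all and Rosa tChIP 86. This value rests on few counts and on the libraries that chose the members. An intronic region of Rgs3, a regulator of G protein signalling, followed a similar pattern with 6 and 61 counts. Deeper counts stood behind S100a16, a calcium-binding protein gene, with 35.0, 37.9 and 47.3 CPM in Rosa tChIP, 3.28, 2.88 and 2.95 in Camk2a tChIP, 22.0, 17.9 and 18.5 in Rosa single ChIP and 26.7, 28.1 and 21.4 in Camk2a single ChIP. At Serpinh1, the collagen chaperone gene, CPM was 73.3, 98.9 and 72.7 in Rosa tChIP, 9.84, 6.12 and 5.90 in Camk2a tChIP, 35.2, 34.5 and 33.7 in Rosa single ChIP and 36.4, 37.1 and 35.2 in Camk2a single ChIP. For both genes Rosa tChIP was above every single ChIP value and Camk2a tChIP was below every single ChIP value. The rest of the 10 lowest were Tmem176b, Gpt (alanine aminotransferase), Cmtm5, Tsc22d4, the interferon-induced gene Ifitm3 and Pik3r6, at −3.39 to −3.17.

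Ranked by level in Rosa tChIP, the highest member was Zfp36l1, which encodes a protein that promotes decay of AU-rich mRNAs. Its region (chr12:81210054-81217705, 7652 bp) had 216, 240.1 and 213 CPM in Rosa tChIP, 95.1, 96.8 and 107 in Camk2a tChIP, 199, 206 and 201 in Rosa single ChIP and 209.9, 199 and 192 in Camk2a single ChIP. Here the Rosa tChIP values were above the single ChIP values by a small margin, and most of the log2 ratio of −1.16 came from the lower Camk2a tChIP values. Next were Amotl2, Tgif1, Cdc42ep4, Ppap2b, Prdm16, Zic5, 2310014H01Rik, Sall1 and S1pr1, with mean Rosa tChIP CPM from 210.0 at Amotl2 to 153 at S1pr1. Sall1, a zinc finger factor of kidney and microglia development, had 149, 164 and 150.3 CPM in Rosa tChIP and 29.2, 31.0 and 36.9 in Camk2a tChIP, and S1pr1, a receptor for sphingosine 1-phosphate on endothelium and astrocytes, had 147, 147 and 164 and 29.2, 33.1 and 27.3. Tgif1, a homeodomain repressor in TGF-β signalling, differed from these in that its Camk2a tChIP values of 70.8, 87.5 and 91.9 lay around its single ChIP values of 87.1, 83.6 and 89.6 in the Rosa line and 87.0, 91.4 and 89.1 in the Camk2a line.

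Levels of the members in single ChIP were low. Their median of mean CPM was 18.1 in Rosa single ChIP (range 1.39 to 202) and 19.0 in Camk2a single ChIP (1.85 to 200.3), against 60.3 and 60.7 over all 13994 regions with the minimum. The median over members was 17.7, 17.9 and 17.9 CPM in the Rosa single ChIP libraries and 18.9, 19.4 and 19.0 in the Camk2a single ChIP libraries. When the 13994 regions were divided into quintiles of Rosa single ChIP level, members made up 20.0% of the lowest quintile (up to 23.6 CPM), 7.97%, 2.82% and 1.14% of the next quintiles and 0.50% of the highest. The 14 members in the highest quintile, above 106 CPM, included Zfp36l1, Amotl2 and Cnp. Across the 909 members, Spearman's ρ between Rosa and Camk2a single ChIP means was 0.99, a description of regions that share the same libraries.

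Medians over the members placed the single ChIP level between the tChIP levels of the lines, 32.6 CPM in Rosa tChIP and 9.76 in Camk2a tChIP. The median log2 ratio of tChIP to single ChIP was 0.89 in the Rosa line and −0.83 in the Camk2a line, against 0.03 and −0.04 over the regions with the minimum. These ratios use the libraries that chose the members, so they are given as a description. Rosa tChIP was above Rosa single ChIP in 873 members and at 2 or more times its level in 355, and Camk2a tChIP was below Camk2a single ChIP in 831 and at no more than 0.5 times its level in 378. Both held in 795 members. Of the 13085 regions with the minimum that were not members, 6658 had Rosa tChIP above Rosa single ChIP and 3 had Camk2a tChIP at no more than 0.5 times Camk2a single ChIP. The 36 members with Rosa tChIP below Rosa single ChIP included, besides Mbp, Ermn and Sox10, the oligodendrocyte genes Aspa, Bcas1 and Aatk, all named after their values were seen. At Aspa, an enzyme that splits N-acetylaspartate, CPM was 17.0, 14.9 and 13.0 in Rosa tChIP, 2.30, 1.80 and 3.69 in Camk2a tChIP, 24.5, 25 and 21.7 in Rosa single ChIP and 23.0, 20.6 and 26.1 in Camk2a single ChIP. Both tChIP groups of Aspa were thus below both single ChIP groups.

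Whether members differed between the lines in single ChIP was tested with edgeR (quasi-likelihood F test, TMM scaling, Benjamini-Hochberg adjustment over all 17993 regions, adjusted p under 0.01). Of 909 members, 8 were higher (0.880%) and 11 lower (1.21%) in the Camk2a line; over all regions 167 (0.928%) were higher and 219 (1.22%) lower, and over the 13994 regions with the minimum 105 (0.75%) and 217 (1.55%). The members' shares lay near these backgrounds and are not a result about the members as a group. The median log2 fold change of members was 0.04, against 0.00 over all regions, and it was within 0.5 of 0 in 875 members and within 0.25 in 732. An unadjusted p under 0.05 was reached by 160 members (17.6%), against 22.0% of all regions and 22.5% of those with the minimum. With library totals in place of TMM, the split over all regions was 194 higher and 57 lower, and among members 8 and 7. Leaving out single libraries moved the member counts by more than 1.5 times: without Rosa single ChIP library 2 or 3, 5 members were lower in each case, without Camk2a library 1, 4 were lower and 5 higher, and without Camk2a library 2, 2 were lower and 4 higher. Of the 19 called members, 13, 10 and 11 were still called without Rosa libraries 1, 2 and 3, and 9, 6 and 13 without Camk2a libraries 1, 2 and 3. Zfp36l2, AY036118 and Gm11837 were called in each of these 6 fits.

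Among the members that fell in the Camk2a line, Zfp36l2 had the smallest adjusted p. This paralog of Zfp36l1 (chr17:84584040-84586688) had 119, 120.2 and 122 CPM in Rosa single ChIP, 97.2, 97.6 and 108 in Camk2a single ChIP, 97.9, 123 and 108 in Rosa tChIP and 12.8, 14.4 and 16.2 in Camk2a tChIP. All 3 Camk2a single ChIP libraries were below all Rosa libraries, and the Camk2a tChIP values were far lower. It fell by 0.28 on the log2 scale in single ChIP (SE 0.05, adjusted p = 2.62e-05 in edgeR with Benjamini-Hochberg adjustment, lower in 3 of 3 libraries). Zfp217, a zinc finger repressor gene, had 66.3, 70.2 and 76.6 CPM in Rosa and 57.2, 55.8 and 61.3 in Camk2a single ChIP, without overlap. Its decrease of −0.32 (SE 0.07, adjusted p = 0.000869, edgeR with Benjamini-Hochberg adjustment, 3 of 3 libraries lower) was no longer called without Rosa library 3 (−0.27) or Camk2a library 2 (−0.29). An intronic region of Arhgap23, a GTPase-activating protein gene, had 35.5, 33.9 and 33.1 CPM in Rosa and 27.4, 23.2 and 28.5 in Camk2a single ChIP. Its groups did not overlap either, and the region fell by 0.41 (SE 0.10, adjusted p = 0.00366 in edgeR with Benjamini-Hochberg adjustment, 3 of 3 libraries lower). This call was lost with library totals and held in only 2 of the 6 fits without 1 library, those without Rosa library 3 and Camk2a library 3. Among the called members, the largest decreases were at 1700030C10Rik (−0.85), the Schlafen gene Slfn2 (−0.61), Ly6a (−0.58), which encodes the surface protein Sca-1, and the region of Ifit1 and 2010002M12Rik (−0.58). Each was lower in 3 of 3 libraries, and they were called in 2, 2, 2 and 4 of these 6 fits. These 4 are uncertain, because 1700030C10Rik has a copy of 92.2% identity in mm9, the others belong to families of similar genes, although the search that found this copy found none for them at 90% identity over 0.5 of their length, and how the mapping treated reads that fit several places is not given in the sources used here.

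The remaining 4 members that fell were oligodendrocyte lineage genes. Olig2, a basic helix-loop-helix factor needed for this lineage (chr16:91225104-91229833), had 72.9, 76.7 and 79.6 CPM in Rosa single ChIP, 70.8, 59.3 and 67.7 in Camk2a single ChIP, 80.9, 67.8 and 85.1 in Rosa tChIP and 14.1, 10.8 and 14.8 in Camk2a tChIP. Its neighbour Olig1 (chr16:91269800-91272337) had 62.8, 60.8 and 57.8 and 50.4, 47.5 and 49.5 CPM in Rosa and Camk2a single ChIP and 48.7, 64.1 and 63.1 and 28.5, 28.8 and 28.8 in Rosa and Camk2a tChIP. At Cnp, a myelin enzyme gene, single ChIP values were 119, 123 and 126 CPM in the Rosa line and 104, 113 and 112 in the Camk2a line. Single ChIP groups did not overlap at any of these genes or at Sox10. In edgeR with Benjamini-Hochberg adjustment, Olig1 fell by 0.33 on the log2 scale (SE 0.07, adjusted p = 0.00118), Sox10 by 0.28 (SE 0.07, adjusted p = 0.00426), Olig2 by 0.24 (SE 0.06, adjusted p = 0.00932) and Cnp by 0.19 (SE 0.05, adjusted p = 0.00877), each lower in 3 of 3 libraries. Olig1 lost the call without Camk2a library 2 (−0.31). Sox10 lost it without Rosa library 2 (−0.24) or 3 (−0.27) and without Camk2a library 1 (−0.24) or 2 (−0.29). Olig2 lost it without Rosa library 2 (−0.24) or 3 (−0.22) and without Camk2a library 2 (−0.17) or 3 (−0.26), and Cnp kept it only without Rosa library 1. With library totals as the scaling, Olig1 stayed called and Olig2, Sox10 and Cnp did not; Olig2 and Cnp also lost the call with DESeq2 size factors and in a fit over all 12 libraries. Of the 24 measured genes of the oligodendrocyte list, these 4 fell and 0 rose in edgeR, with a median log2 fold change of −0.12; an unadjusted p under 0.05 was reached by 9 lower and 0 higher genes (over all regions 1.22% were called lower and 22.0% had such a p in either direction), and DESeq2, with an adjusted p for 2 of the genes, called 0. Their summed CPM was 1184, 1252 and 1243 in Rosa and 1154, 1187 and 1169 in Camk2a single ChIP, which overlap, and Sox8, the most abundant, had 204, 216 and 211 and 228, 213 and 212. Over the 13 members alone the sums were 666, 692 and 693 against 609, 633 and 625, without overlap. The part of the number of such cells in these differences was not tested.

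Over all 14 lists, 5 of the 94 members were called in edgeR, the 4 oligodendrocyte lineage genes and the region of Ifit1 and 2010002M12Rik, all lower. Over all regions, 1.22% were called lower and 0.928% higher in the same fit. An unadjusted p under 0.05 was reached by 18 of the 94, 6 higher and 12 lower, against 22.0% of all regions. By list these were 6 of 13 oligodendrocyte lineage members, 4 of 10 Notch, Hes, Id and neural progenitor members, 3 of 5 Hippo members, 2 of 3 antigen presentation and interferon members, 2 of 5 meningeal members and 1 of 8 pericyte and smooth muscle members, and 0 in the others. Outside the members, Smad7 fell by 0.15 (SE 0.03, adjusted p = 0.000147, edgeR with Benjamini-Hochberg adjustment, lower in 3 of 3 libraries) and a region 91 bp from Crabp2, a retinoic acid-binding protein gene, rose by 0.92 (SE 0.23, adjusted p = 0.00555, higher in 3 of 3 libraries). Endothelial genes summed to 1158, 1146 and 1107 CPM in Rosa and 1147, 1156 and 1170 in Camk2a single ChIP, over 30 genes of which Slc2a1 was the most abundant, and the groups overlapped. The sums did not overlap in 5 of the 14 lists. They were higher in the Camk2a line for meningeal genes (117, 119.8 and 115 against 131, 127 and 129, Prrx1 the most abundant), choroid plexus and ependymal genes (96.4, 100.1 and 97.8 against 113, 110.1 and 109.8, Enkur), inhibitory neuron genes (575, 561 and 573 against 588, 585 and 579.8, Maf) and striatal and subcortical genes (356, 342 and 347 against 365, 375 and 369, Tcf7l2), and lower for BMP and TGF-β genes (1909, 1904 and 1917 against 1859, 1860 and 1885, Smad7). Over members alone they did not overlap for the oligodendrocyte, meningeal, and antigen presentation and interferon lists. These sums are scaled by library totals and were not tested. With that scaling the median single ChIP log2 fold change over all regions was 0.03, towards the Camk2a line, against 0.00 with TMM. Small increases of a sum in the Camk2a line may therefore reflect the scaling. The Enkur region, with a mean of 54.2 CPM in Rosa single ChIP, also overlaps the TSS of Thnsl1, so its value may not be that of Enkur. No share of separated groups over all regions is given here, so the 5 of 14 lists cannot be set against a background. Irf9, the DNA-binding subunit of an interferon-activated complex, had 21.1, 18.9 and 19.5 CPM in Rosa and 15.0, 17.5 and 13.0 in Camk2a single ChIP. Its groups did not overlap, and it missed the threshold (−0.41, SE 0.13, adjusted p = 0.032, edgeR with Benjamini-Hochberg adjustment, 3 of 3 libraries lower).

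The 8 members that rose in the Camk2a line were mostly narrow regions of low level. AY036118, a region of 829 bp (chr17:39985013-39985841), had 10.8, 8.10 and 9.97 CPM in Rosa single ChIP, 37.6, 34.3 and 37.7 in Camk2a single ChIP, 119, 121 and 119 in Rosa tChIP and 53.8, 60.5 and 60.2 in Camk2a tChIP. Of the 909 members it was the only 1 whose Rosa tChIP level was above 10 times its Rosa single ChIP level. In edgeR with Benjamini-Hochberg adjustment it rose by 1.91 in single ChIP (SE 0.12, adjusted p = 5.72e-35, 3 of 3 libraries higher). The locus is known to hold a partial copy of ribosomal DNA, which is repeated in the genome, so its values are uncertain, although the search for copies in mm9 found none. Gm11837 had 6.33, 8.79 and 8.39 CPM in Rosa and 17.0, 13.2 and 16.7 in Camk2a single ChIP, without overlap, and rose by 0.95 (SE 0.16, adjusted p = 2.45e-06, edgeR with Benjamini-Hochberg adjustment, 3 of 3 libraries). Rbms3, an RNA-binding protein gene, had 30.0, 31.3 and 31.2 and 40.7, 38.5 and 46.0 CPM and rose by 0.40 (SE 0.09, adjusted p = 0.00115, edgeR with Benjamini-Hochberg adjustment, 3 of 3 libraries), a call lost without Camk2a library 3 (0.33). Aox1 (aldehyde oxidase), Ppap2c (a lipid phosphatase), Ppp1r3b (a glycogen-targeting phosphatase subunit), Vamp8 (a vesicle SNARE protein) and a gene-body region of Ccdc8 rose by 0.66, 0.62, 0.61, 0.49 and 0.67, each with 3 of 3 Camk2a libraries above all Rosa libraries. These calls held in only 3, 3, 2, 3 and 2 of the 6 fits without 1 library. For these 8 regions the line difference in single ChIP and the selection value in tChIP have opposite signs.

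The members were narrower than the regions they were taken from. Their median width was 1658 bp (range 485 to 7652, quartiles 1134 and 2429), against 2036 bp over the 13994 regions. Members made up 12.0% of the narrowest quintile, up to 1386 bp wide, and 6.78%, 4.23%, 4.50% and 4.99% of the wider quintiles. Width followed level: across the 909 members Spearman's ρ was 0.91 with mean CPM in Rosa single ChIP and 0.81 with Rosa tChIP, and a wider region collects more counts by construction. Against the log2 ratio of tChIP to single ChIP in the Rosa line it was −0.62, while it was −0.09 against the log2 ratio that chose the members. The widest members were Zfp36l1 (7652 bp), Foxf2 (7336 bp), S1pr1 (7294 bp), Car2 (7202 bp) and Cnp (6839 bp). Car2, a carbonic anhydrase of oligodendrocytes, had 151, 123 and 121 CPM in Rosa tChIP, 47.9, 46.4 and 41.7 in Camk2a tChIP, 138, 152 and 145 in Rosa single ChIP and 132, 146 and 134 in Camk2a single ChIP. Its levels in Rosa tChIP and in single ChIP were thus similar, and the single ChIP groups overlapped. The narrowest were C130021I20Rik (485 bp), Casc1 (496 bp), a region near 5830416P10Rik (545 bp), Cybrd1 (553 bp) and Bnc1 (563 bp), all under 10 CPM in each single ChIP library. At Bnc1 CPM was 9.84, 15.6 and 13.7 in Rosa tChIP, 6.56, 6.12 and 5.90 in Camk2a tChIP, 1.97, 2.66 and 2.37 in Rosa single ChIP and 1.45, 5.20 and 2.71 in Camk2a single ChIP, so that in this narrow region both tChIP groups were above both single ChIP groups.

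Most members lay at promoters. In the GENCODE M1 annotation of mm9, 745 (82.0%) overlapped a TSS, against 87.5% of the 13994 regions, 79 (8.69%) overlapped an exon in a gene body, 37 (4.07%) lay in an intron and 48 (5.28%) were intergenic. The exon group was more frequent among members than over all regions with the minimum, where it was 3.09%, and 58 of the members without a TSS had a TSS within 1000 bp. At a TSS, 717 members were assigned to protein-coding genes, 14 to lincRNAs, 5 to processed transcripts, 5 to pseudogenes, 2 to miRNAs and 2 to snRNAs. Cldn5, the main claudin of brain endothelium, was covered by a region 48 bp from its start that lies in the body of the neighbouring gene Cdc45. Farther from any start were an intronic region of Tns1, 35674 bp away, with 67.8, 70.9 and 63.8 CPM in Rosa tChIP and 16.4, 9.36 and 12.5 in Camk2a tChIP, and an intergenic region 36333 bp from Ankrd33 with 92.4, 85.9 and 97.4 and 25.6, 23.8 and 25.1. Tns1, which links integrins to actin, held 4 member regions, the most of any gene, and Rgs3 held 3.

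Members were also found side by side. With gaps of at most 50000 bp, 9 groups of 3 or more members were found. On chromosome 14, all 4 regions with the minimum between 122805204 and 122890452, around Zic5, a zinc finger factor of neural development, were members at −3.11 to −1.91. At Zic5 itself CPM was 148, 161 and 171 in Rosa tChIP, 32.5, 27.4 and 33.6 in Camk2a tChIP, 87.8, 89.0 and 90.1 in Rosa single ChIP and 82.2, 83.6 and 90.6 in Camk2a single ChIP, with overlapping single ChIP groups. Around Nkx2-2, an oligodendrocyte factor, all 3 regions were members, the antisense transcript Nkx2-2as included, and so were all 4 regions across Pdlim2, Sorbs3 and Gm16600. A group on chromosome 15 joined the region near Ankrd33 with 2 regions of Acvrl1. By chromosome, the share of members among regions with the minimum ran from 3.88% (20 regions) on chromosome 12 to 8.40% (90 regions) on chromosome 7.

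Sequence composition of the members also differed from that of the regions they were taken from. Their median CpG observed/expected ratio was 0.503 against 0.605 over the 13994 regions, although their GC content was higher, 56.6% against 54.2%. Members made up 14.1% of the quintile with the lowest CpG ratio and 3.82% to 5.68% of the other quintiles, and 11.7% of the quintile with the highest GC content. By number of CpG per 100 bp, both ends held more members. Their share was 12.7% in the lowest quintile, 3.32% to 4.47% in the middle quintiles and 8.11% in the highest. The 613 members (67.4%) below the median CpG ratio of all regions with the minimum had a median log2 ratio of −1.71, against −1.41 for the other 296. Across the members Spearman's ρ between the CpG ratio and the log2 ratio was 0.37, a description over regions that share the same libraries. In the 300 bases before the 5′-most TSS, the 745 members at a TSS held a median of 13 CG dinucleotides, against 17 in the 12238 regions at a TSS, and 74 (9.93%) held 3 or fewer, against 3.43%.

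The range of CpG content is shown by 3 promoter windows of 300 bases in mm9, printed 5′ to 3′ on the strand of the gene and ending at the base before the TSS, with CG in capitals. Robo4, a receptor of endothelial cells, has 2 CG in chr9:37209315-37209614 on the plus strand. Apoe, the lipid carrier made by astrocytes, was added after its values were seen (88.6, 97.1 and 105 CPM in Rosa tChIP, 8.53, 11.5 and 11.4 in Camk2a tChIP) and has 8 CG in chr7:20284516-20284815 on the minus strand. Olig2 has 25 CG in chr16:91225495-91225794 on the plus strand. All 3 regions were members, at −2.96, −3.15 and −2.52.
Robo4: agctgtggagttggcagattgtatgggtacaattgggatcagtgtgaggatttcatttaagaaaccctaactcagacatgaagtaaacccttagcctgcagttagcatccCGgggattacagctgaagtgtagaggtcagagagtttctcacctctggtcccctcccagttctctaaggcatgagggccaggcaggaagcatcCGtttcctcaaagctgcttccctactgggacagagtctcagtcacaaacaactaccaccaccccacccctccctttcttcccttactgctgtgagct
Apoe: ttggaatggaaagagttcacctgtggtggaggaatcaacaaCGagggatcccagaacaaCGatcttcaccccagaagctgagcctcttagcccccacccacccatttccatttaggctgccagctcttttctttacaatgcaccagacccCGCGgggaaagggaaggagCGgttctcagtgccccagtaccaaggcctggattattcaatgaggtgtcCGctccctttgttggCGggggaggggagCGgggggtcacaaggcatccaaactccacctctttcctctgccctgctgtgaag
Olig2: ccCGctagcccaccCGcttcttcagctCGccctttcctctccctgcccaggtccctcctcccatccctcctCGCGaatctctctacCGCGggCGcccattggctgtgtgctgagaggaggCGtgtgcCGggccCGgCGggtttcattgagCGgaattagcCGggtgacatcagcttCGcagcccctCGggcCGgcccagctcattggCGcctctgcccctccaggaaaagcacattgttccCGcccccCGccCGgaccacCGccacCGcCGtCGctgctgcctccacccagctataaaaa

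Short motifs of 8 factor classes were searched in the same windows, on both strands. The ETS motif CCGGAAGT, which holds a CG, was in 5 of 745 member windows (0.671%), against 5.12% of the 12238 windows. The AP-1 motif TGANTCA was in 7.92% of member windows against 4.76%, the RBPJ motif GTGGGAA in 8.32% against 6.07%, the TEAD motif GGAATGT in 4.56% against 2.89%, the SOX motif ACAATGG in 2.68% against 1.98% and the PU.1 motif GAGGAAGT in 2.82% against 2.22%. The partial REST motif TTCAGCACC (0.403% against 0.343%) and the TATA box TATAAAA (2.95% against 2.63%) were the remaining motifs. GTGGGAA and GGAATGT can share the bases GGAA, and GAGGAAGT and CCGGAAGT both hold GGAAGT but cannot match at the same place. These shares were not tested, and a match describes letters in a window, not binding.

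For 2 members of the lists, the windows with matches are printed to show where they fall, with the matched bases in capitals (mm9, 5′ to 3′ on the strand of the gene). Ermn, a myelin gene, has the SOX motif ACAATGG at 234 bases before the TSS, in chr2:57905276-57905575 on the minus strand. Acvrl1 has TGACTCA in chr15:100958653-100958952 on the plus strand.
Ermn: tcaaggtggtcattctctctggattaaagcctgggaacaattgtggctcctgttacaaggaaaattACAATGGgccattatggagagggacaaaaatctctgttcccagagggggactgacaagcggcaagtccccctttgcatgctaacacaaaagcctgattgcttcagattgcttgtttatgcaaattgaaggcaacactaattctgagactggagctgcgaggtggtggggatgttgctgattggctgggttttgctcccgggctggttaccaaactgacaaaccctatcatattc
Acvrl1: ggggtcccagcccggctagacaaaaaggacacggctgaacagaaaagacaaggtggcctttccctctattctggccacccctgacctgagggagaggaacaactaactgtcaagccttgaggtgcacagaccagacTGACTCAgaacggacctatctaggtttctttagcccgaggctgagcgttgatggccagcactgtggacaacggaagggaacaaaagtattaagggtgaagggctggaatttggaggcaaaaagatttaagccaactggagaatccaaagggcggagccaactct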

How the data were processed

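Reads per peak region had been counted by the authors with bedtools 2.17.0, and the deposited counts are whole numbers on 17993 regions shared by the 12 H3K4me3 libraries. Before that the authors removed reads from repeats with Bowtie2 2.1.0, mapped the rest to mm9 with Bowtie 1.0.0 and removed duplicates with SAMtools, for which the sources give different versions. How reads with several matches were treated is not given in the sources used here. Input and FLAG libraries were not used. Members were found from CPM on library totals. The lines were compared in single ChIP with edgeR 4.0.16 (R 4.3.3; TMM, glmQLFit, glmQLFTest, no filter), checked on simulated data; DESeq2 1.42.0 was an alternative. Features were computed with Python 3.11.15, pandas 2.3.3, numpy 2.4.6 and scipy 1.17.1, and similar sequences were searched with minimap2 2.31. Members and lists were chosen with earlier results of these data known. Named regions were, per list, up to 4 members and 2 other genes with the highest Rosa tChIP CPM, the 10 lowest ratios, the 10 highest levels, the 5 widest, narrowest and nearest to the threshold on each side, members called in single ChIP, and 10 without a TSS; others were named after their values were seen.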

Additional observations from a re-analysis of the deposited data

How the results depend on the processing

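With a count minimum of 40 in place of 20, 575 regions were members, all of them among the 909. Minimum 10 gave 1181, TMM-scaled totals 850, pseudocounts of 0.1 and 2 gave 942 and 835, and leaving out single tChIP libraries gave 892 to 951. A TSS within 1000 bp was found for 88.3% of members, against 82.0% by overlap. The 11 members called lower in single ChIP became 7 with library totals, 1 with the Wald test of DESeq2 and 22 at an adjusted p under 0.05, and 2 to 9 when single libraries were left out. The 8 called higher became 0 with DESeq2, 29 at 0.05 and 4 to 7 without single libraries. DESeq2 gave an adjusted p for 19 members only, so its counts say little about the others; the causes of the other differences were not tested. DESeq2 size factors gave 9 lower and 8 higher, as did a fit over all 12 libraries.

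The replicate numbers are not known to pair the lines. With the number as a replicate block, 11 members were lower and 8 higher, the same 19 regions. Deviations of same-numbered Rosa and Camk2a single ChIP libraries correlated at 0.00722, 0.00429 and 0.00152, and Rosa library 3 correlated more with Camk2a library 2 (0.00248), so they were not treated as paired.

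Depth limits the members most in tChIP, where the count minimum equals about 12.0 CPM. Single and tandem libraries share replicate numbers, and whether they share lysates is not given.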

Other observations

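Some gene families were looked at after the values were seen, counting only genes whose region with the count minimum overlaps a TSS, of which 732 of 11593 (6.31%) were members. Among transcription factors, members were 4 of 4 Tbx, 2 of 2 Gata, 2 of 2 Zic, 3 of 4 Lhx and 6 of 21 Fox genes, and 0 of 12 Klf, 0 of 3 Hox, 0 of 3 Neurod and 0 of 1 Irx genes. At Gata2, a factor of blood and endothelial cells, CPM was 112, 127 and 124 in Rosa tChIP, 20.0, 27.4 and 21.8 in Camk2a tChIP, 72.5, 69.8 and 70.6 in Rosa single ChIP and 64.2, 61.2 and 67.9 in Camk2a single ChIP, and the single ChIP groups, which did not overlap, differed by −0.17 on the log2 scale without passing the test. Tbx3 had 90.2, 82.1 and 94.0 in Rosa tChIP, 13.4, 10.8 and 10.7 in Camk2a tChIP, 74.9, 70.9 and 68.4 in Rosa single ChIP and 60.6, 64.3 and 74.8 in Camk2a single ChIP, where the groups overlapped. Members were 0 of 11 GABA-A receptor (Gabr) genes and 2 of 63 genes with the Kcn prefix, counts to be read beside the same 6.31%. These 2 were Kcnip3 and Kcnj10, and not all genes with this prefix encode potassium channels. Kcnj10, the inward rectifier of glia, had 47.6, 39.8 and 37.7 CPM in Rosa tChIP and 16.7, 15.5 and 17.7 in Camk2a tChIP. No family was tested.

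Among noncoding genes, Neat1, the RNA scaffold of paraspeckles, had 125, 126 and 134 CPM in Rosa tChIP, 26.2, 27.0 and 21.8 in Camk2a tChIP, 104, 112 and 108 in Rosa single ChIP and 106, 109.6 and 110.0 in Camk2a single ChIP, so that only Camk2a tChIP stood apart by a wide margin. Among miRNAs, the region over the start of Mir219-2, known from oligodendrocyte differentiation, had 25.2, 19.3 and 31.6 CPM in Rosa tChIP, 9.84, 7.20 and 5.54 in Camk2a tChIP, 34.6, 36.7 and 36.3 in Rosa single ChIP and 32.5, 34.3 and 30.5 in Camk2a single ChIP. Camk2a tChIP was below every single ChIP value, and Rosa tChIP overlapped Camk2a single ChIP in library 3 only. Mir152 lies in the member region of Copz2 (−1.20), which had 30.6, 42.3 and 39.1 CPM in Rosa tChIP and 19.3, 14.4 and 14.0 in Camk2a tChIP. The mature forms, chosen after the values were seen and taken from RefSeq for GRCm38.p6, are printed with the seed, bases 2 to 8, in capitals, to show that the seeds differ.
miR-219a-5p: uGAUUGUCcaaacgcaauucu
miR-152-3p: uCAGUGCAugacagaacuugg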
